A study of Mus musculus with 18 samples.

Results

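Livers of 12 mice fed a high-fat diet (HFD) were compared by whether alginate oligosaccharide (AOS) stood anywhere in their treatment. The 6 AOS-linked livers came from HFD+AOS mice, given HFD and AOS at 10 mg/kg, and from A10-FMT mice, given HFD and the gut microbiota of donors dosed with AOS at 10 mg/kg (3 livers each). The 6 AOS-free livers came from HFD mice, given saline, and from Con-FMT mice, given HFD and the gut microbiota of undosed donors (3 livers each). They were taken by their labels out of 18 livers, the other 6 being from mice on a regular diet with (AOS) or without (Con) the oligosaccharide. All 18 mice were ICR animals, an outbred stock, and 10 weeks old. By the methods of the study the mice were male, the diet began at 3 weeks of age, and 0.1 mL of microbiota was given by mouth each day for 2 weeks after 2 weeks of diet. The microbiota of each kind of donor was pooled, so that each transplant group stands for 1 donor pool. The schedule of AOS dosing in HFD+AOS mice and the time of day at which livers were taken are not given in the sources used here. The labels number the livers of a group and do not say that they came from separate mice, so p-values measure the spread between these livers.

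The contrast between AOS-linked and AOS-free livers was the mean of a direct route (HFD+AOS minus HFD) and a transplant route (A10-FMT minus Con-FMT), which share no library. Gene expression was deposited as RPKM, read numbers scaled by gene length and by the reads of the library, and differences are on the scale of log2(RPKM + 1), which understates the change of weakly expressed genes. Tests were run on the 10507 genes that reached 1 RPKM in 3 or more of the 18 libraries. Read totals are not held in RPKM, so the depth behind a value is unknown. The RPKM of a high-fat liver summed to between 692303 and 777378, and between 14512 and 14982 genes were above 0.

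The liver keeps daily time with a feedback loop of transcription factors. BMAL1 (gene Arntl) pairs with CLOCK or NPAS2 and drives, through E-box elements, the genes of the PER and CRY repressors, of the REV-ERB receptors (Nr1d1, Nr1d2) and of the PAR bZIP factors DBP, TEF and HLF. The REV-ERB receptors in turn repress Arntl, Npas2, Nfil3 and Cry1, so that these genes peak at another time of day than Dbp and the Per genes. NFIL3 and the PAR bZIP factors compete for D-box elements. Much of hepatic lipid, glucose and bile acid metabolism follows this cycle together with feeding.

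The regulatory stretches of a pair of genes that differed between AOS-linked and AOS-free livers are shown because they carry these elements. They are the 250 bases before the RefSeq start, read 5′ to 3′ on the strand of the gene (GRCm38.p6). In Ciart, which encodes a repressor of BMAL1 and CLOCK, capitals mark 3 E-boxes (CACGTG) at chr3:95882229-95882478 on the minus strand. In Per3, capitals mark a pair of D-boxes (TTATGTAA) at chr4:151044666-151044915 on the minus strand.
Ciart: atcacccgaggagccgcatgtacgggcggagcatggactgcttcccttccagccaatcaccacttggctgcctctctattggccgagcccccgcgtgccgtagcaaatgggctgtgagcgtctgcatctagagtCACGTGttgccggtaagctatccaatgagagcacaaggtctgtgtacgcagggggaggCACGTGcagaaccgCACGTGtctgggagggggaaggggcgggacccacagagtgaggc
Per3: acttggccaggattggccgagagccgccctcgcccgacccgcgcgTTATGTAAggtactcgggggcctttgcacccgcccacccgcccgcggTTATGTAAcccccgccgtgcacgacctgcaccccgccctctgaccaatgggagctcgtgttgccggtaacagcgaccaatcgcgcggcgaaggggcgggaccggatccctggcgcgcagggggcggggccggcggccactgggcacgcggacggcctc
The E-box, searched on both strands of this window, was present in 6.86% of 27025 genes with a RefSeq promoter and in 10.1% of the 8374 of them that were tested here. It was present in 15.4% of 370 genes that were higher in AOS-linked livers and in 9.05% of 453 that were lower. Of the clock repressor and PAR bZIP genes described next, 4 of 11 with a promoter in the table held it (Ciart, Per1, Tef and Bhlhe41). That list holds genes known to be driven through E-boxes, so that such a share comes with the choice of the list. The D-box, TTATGTAA or TTACGTAA, was present in 1.1% of all genes, in 1.62% of the 370 higher genes and in 0.442% of the 453 lower genes, and Per3 was the 1 of the 11 that held it. The REV-ERB response element (RRE) was present in 0.396% of all genes and before 0 of the 5 genes of the Bmal1 phase that fell, which says only that these letters are not in the window. A match is a description of the letters, and the binding of a factor was not measured.

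Between AOS-linked and AOS-free livers, 1033 of the 10507 genes (9.83%) passed an adjusted p of 0.05 (limma, Benjamini-Hochberg). Of these, 473 were higher (4.5% of the genes tested) and 560 were lower (5.33%). At an unadjusted p under 0.05 there were 3006 genes. The number called was 654 without HFD 2, 560 without HFD 3, 518 without HFD+AOS 1, 512 without Con-FMT 2, 554 without A10-FMT 1 and 582 without A10-FMT 2. The differences were mostly small, and 56 of the genes called had an absolute log2 difference of at least 1, with 24 higher and 32 lower. Among all genes tested, the 6 AOS-linked values lay above the 6 AOS-free values in 209 genes (1.99%) and below them in 300 genes (2.86%). Transplant against no transplant, taken over the same 12 livers, gave 0 genes (0%) by limma and 597 at an unadjusted p under 0.05.

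Clock genes were among the largest differences between AOS-linked and AOS-free livers. Of the 13 clock repressor and PAR bZIP genes tested, all 13 rose, with a median log2 difference of 1.38 against a median of -0.02 over all genes. Of the 6 genes of the Bmal1 phase, 5 fell (Arntl, Clock, Npas2, Nfil3 and Cry1), with a median of -1.29. The shares called were 100% and 83.3%, against 9.83% of all genes. The lists were chosen with earlier results of these data known, so these shares are a description and no test of the lists. The 6 AOS-linked and 6 AOS-free values did not overlap in 10 of the 13 genes and in 4 of the 6. Over all genes tested, 1.99% were higher and 2.86% lower without overlap. The count of 13 was 11 without HFD 2, HFD+AOS 1, HFD+AOS 3, Con-FMT 1, Con-FMT 2 or A10-FMT 1, and the count of 5 did not change without any of the 12 libraries.

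Dbp encodes a PAR bZIP activator that binds D-boxes, and lies at chr7:45705088-45710203. Its RPKM was 0.56, 0.27 and 0.59 in HFD livers, 16.5, 3.24 and 22.6 in Con-FMT livers, 112, 88.9 and 97.8 in HFD+AOS livers and 127, 70.8 and 49.2 in A10-FMT livers. Every AOS-linked liver was above every AOS-free liver, and Con-FMT livers lay between HFD and the AOS-linked groups. The log2 difference was 4.39 ± 0.36 (SE, adjusted p = 6.53e-05), the largest of all genes called, and was higher on the direct route (6.09) than on the transplant route (2.68), a difference of routes that did not pass the test (adjusted p = 0.361). By an exact permutation test over all splits of 6 against 6 livers, two-sided, p was 0.00216, the smallest that such splits can give. With splits kept within each route, the permutation p was 0.005, again the smallest possible. Every gene without overlap reaches both values, and Dbp was named for its large difference.

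Ciart rose from an RPKM of 0.05, 0.2 and 0.2 in HFD livers and 0.96, 0.63 and 1.9 in Con-FMT livers. It stood at 7.21, 9.82 and 10.7 in HFD+AOS livers and at 14.6, 13.7 and 8.99 in A10-FMT livers. The groups were far apart beside their spread, and the log2 difference was 2.90 ± 0.15 (adjusted p = 3.65e-06). Per3, a period gene, had a median RPKM of 0.865 (0.38 to 2.64) in AOS-free livers and of 8.12 (4.59 to 10.1) in AOS-linked livers, with a log2 difference of 2.11 ± 0.16. Tef rose by 2.01 ± 0.16, Usp2, which encodes a deubiquitinase under clock control, by 2.13 ± 0.18, and Nr1d2 by 1.38 ± 0.16. Smaller rises were measured for Per2 (0.96 ± 0.14), Bhlhe40 (0.70 ± 0.09), Cry2 (0.75 ± 0.11) and Hlf (0.54 ± 0.09). Per1 (0.97 ± 0.26) and Nr1d1 (1.71 ± 0.45) had overlapping values, and each lost its call in 8 of the 12 fits that leave out 1 library.

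In the opposite direction, Arntl, at chr7:113207465-113314126, had an RPKM of 12.1, 14.6 and 13.2 in HFD livers and 8.02, 12.97 and 6.94 in Con-FMT livers. It had fallen to 1.18, 1.23 and 1.32 in HFD+AOS livers and to 0.79, 0.69 and 2.41 in A10-FMT livers. The AOS-free mean was 8.91 times the AOS-linked mean, and the log2 difference was -2.44 ± 0.18 (adjusted p = 3.96e-05). Npas2, the gene of the CLOCK paralogue, had a median RPKM of 2.23 in AOS-free livers (0.67 to 2.95) and of 0.085 in AOS-linked livers (0.02 to 0.29), a log2 difference of -1.38 ± 0.12. Nfil3 fell by 1.35 ± 0.12 on the log2 scale and Clock by 1.00 ± 0.11. Cry1 fell by 1.23 ± 0.22, with A10-FMT 2 (5.41 RPKM) and A10-FMT 3 (4.22 RPKM) above Con-FMT 3 (3.94 RPKM). Per1, Per2, Cry1, Cry2, Nr1d2, Hlf, Bhlhe40, Bhlhe41 and Clock are members of the lists that were named after their values were seen.

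**Figure D1:**
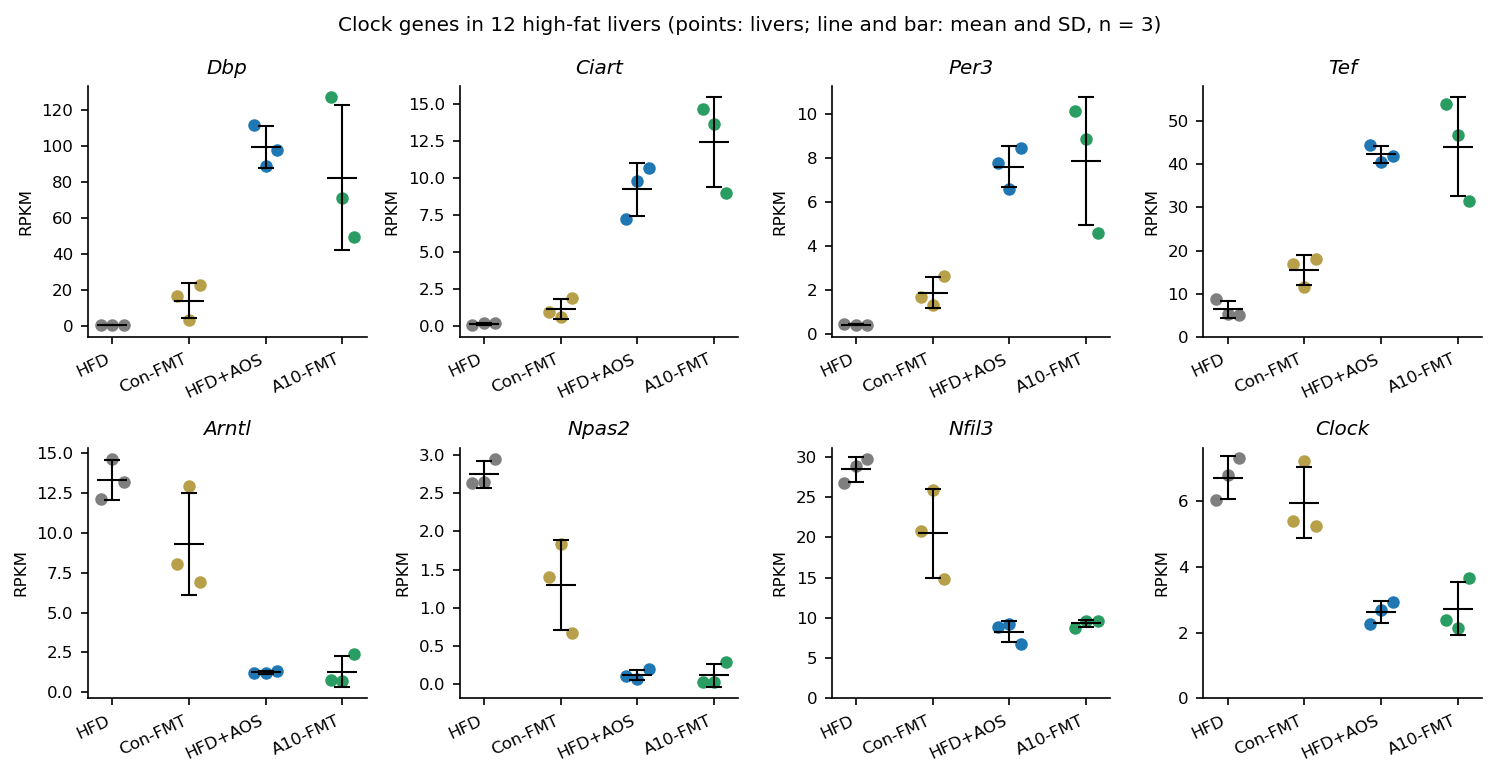
RPKM (y axes, linear) of 4 genes that rose and 4 that fell, by group (x axes), with a point for each liver and the mean and SD of 3 livers. HFD and Con-FMT livers lie on the opposite side from HFD+AOS and A10-FMT livers in each panel, as for Dbp, at 0.27 to 22.6 against 49.2 to 127.

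A clock index was formed for each liver as the mean log2(RPKM + 1) of the 13 repressor and PAR bZIP genes minus that of the 6 genes of the Bmal1 phase. It was -1.57, -1.88 and -1.98 in HFD livers and -0.56, -1.22 and 0.13 in Con-FMT livers. In HFD+AOS livers it was 1.71, 1.66 and 1.83, and in A10-FMT livers 2.15, 1.55 and 1.13. The AOS-linked livers were thus all above the AOS-free livers, with Con-FMT 3 and A10-FMT 3 nearest to each other. The index is made of the genes described above, so it adds no separate support for their difference. Of the variance of the index over the 12 livers, 86.0% lay between AOS-linked and AOS-free livers. On the regular diet, the index was -2.03 to -1.75 in Con livers and -1.86 to -0.81 in AOS livers, below every AOS-linked high-fat liver. Of those 6 libraries, Con 3 and AOS 3 stood apart, since each was close to a weighted mean of the other libraries of its group, at a median absolute log2 difference of 0.07 and 0.08 against 0.34 to 0.59 for a high-fat library. They were used here only in choosing the genes to test and in the fit to all 18 libraries. Since the time of sampling is not given, treatment and time of day cannot be told apart for these genes, and the index differed in this way beside every group of genes described here. With the index as a covariate, a fit added after the data were seen, limma called 0 genes (371 at an unadjusted p under 0.05), with standard errors 4.13 times as large in the median, because the index and the groups were nearly the same measure.

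**Figure D2:**
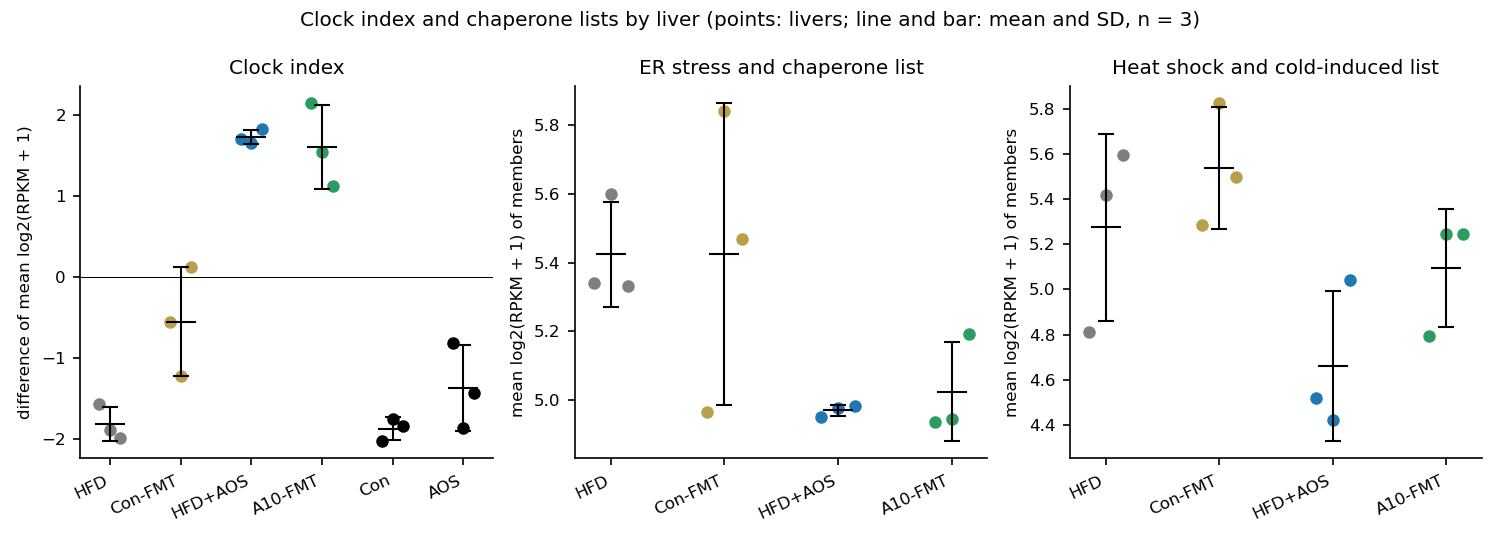
Clock index by liver in 6 groups (left), and mean log2(RPKM + 1) of the endoplasmic reticulum chaperone list (middle) and of the heat shock and cold-induced list (right) in the 4 high-fat groups, with the mean and SD of 3 livers. The index separates the AOS-linked livers (1.13 to 2.15) from the AOS-free livers (-1.98 to 0.13), while the chaperone lists overlap between groups.

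Further genes differed as strongly. Rgs16, a regulator of G-protein signalling, had a median RPKM of 2.74 (1.56 to 4.78) in AOS-free livers and 29.4 (9.58 to 50.2) in AOS-linked livers, with a log2 difference of 2.68 ± 0.34. Wee1, the gene of a cell cycle kinase, rose by 1.63 ± 0.12. Thrsp, a lipogenic gene, rose from a median of 101 RPKM (33.5 to 121) to 506 (269 to 695), with a log2 difference of 2.55 ± 0.34. Upp2, which encodes a uridine phosphorylase, rose by 2.21 ± 0.25. Among the genes that fell, Cdkn1a, the gene of the cell cycle inhibitor p21, went from a median of 10.7 RPKM (5.38 to 16.5) to 0.62 (0.27 to 2.18), with a log2 difference of -2.60 ± 0.21. Chka, which encodes choline kinase alpha, fell by 1.95 ± 0.11 (adjusted p = 3.65e-06). Tubb2a, a tubulin gene, fell by 2.32 ± 0.38 and Clpx, of the mitochondrial protease ClpXP, by 1.51 ± 0.17. For Tubb2a, A10-FMT 3 (47.6 RPKM) lay just below Con-FMT 3 (48.1 RPKM). Its transplant route alone did not pass (limma, adjusted p = 0.138). Without overlap between AOS-linked and AOS-free livers were Rgs16, Wee1, Thrsp, Upp2, Cdkn1a, Chka, Tubb2a and Clpx.

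The direct and transplant routes moved most genes in the same direction. Taken alone, the direct route called 515 genes (4.9%), with 304 higher and 211 lower, and the transplant route 78 (0.742%), with 23 higher and 55 lower. Of the 515 genes, 475 (92.2%) had the same sign on the transplant route, and of the 78 genes, 75 (96.2%) had the same sign on the direct route, against 68.3% of all genes. Both routes called 57 genes, which are 11.1% of the 515 and 73.1% of the 78, with 20 higher, 37 lower and 0 in opposite directions. Across all 10507 genes, Pearson's r between the routes was 0.579 and Spearman's rho 0.512, as a description, since genes are not independent replicates. Of the 1033 genes called on the mean of the routes, 741 (71.7%) had the larger absolute difference on the direct route, and 574 were called on neither route alone. The direct route called 192 genes without HFD 2, 152 without HFD 3, 141 without HFD+AOS 1, 271 without HFD+AOS 2 and 215 without HFD+AOS 3. The transplant route called 45 without Con-FMT 1, 10 without Con-FMT 2, 13 without A10-FMT 1, 11 without A10-FMT 2 and 284 without A10-FMT 3, and also 47 without HFD 2 and 49 without HFD+AOS 1, which enter its estimate of the spread.

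**Figure D3:**
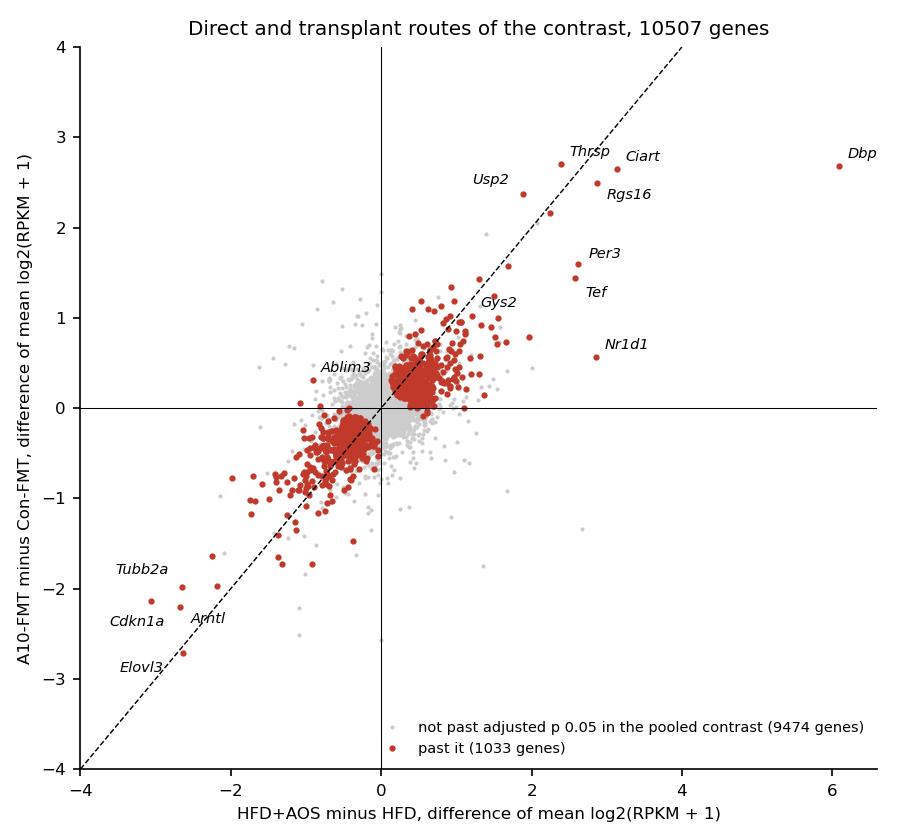
Log2 difference of each gene on the direct route (x axis) and on the transplant route (y axis), with the 1033 genes called in the pooled contrast in red and the dashed line at equality. Red points lie in the lower left and upper right, with Dbp at 6.09 and 2.68, and 1025 of the 1033 have the same sign on both routes.

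The difference between the routes themselves was tested gene by gene, and 1 gene of 10507 passed (0.00952%), with 684 at an unadjusted p under 0.05. This was Ablim3, which encodes an actin-binding LIM protein. Its RPKM was 6.66, 7.18 and 7.66 in HFD livers and 3.51, 3.26 and 3.25 in HFD+AOS livers, and it was 3.23, 3.31 and 3.52 in Con-FMT livers and 4.39, 5.13 and 3.75 in A10-FMT livers. HFD livers were thus above all others. The log2 difference was -0.91 on the direct route and 0.31 on the transplant route, and their difference was -1.22 ± 0.13 (SE, adjusted p = 0.0116), a call that was lost without HFD 2, HFD 3, HFD+AOS 2, HFD+AOS 3, Con-FMT 1 or A10-FMT 1. The next genes by p were Fgfrl1, Zbtb16 and a gene model with no name, each with an adjusted p of 0.361 for the difference.

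Chaperones of the endoplasmic reticulum (ER), which fold secreted proteins and rise with the unfolded protein response, were mostly lower in AOS-linked livers. Of 29 genes tested, 17 fell, 1 rose (Herpud1) and 11 did not pass, with a median log2 difference of -0.44. The share called was 62.1%, against 9.83% of all genes. The count of 18 called genes was 7 without HFD+AOS 1 or A10-FMT 1 and 8 without HFD 2 or A10-FMT 2, and it was 11 without HFD 3, HFD+AOS 3 or Con-FMT 3. Hspa5, the gene of the ER chaperone BiP, had an RPKM of 327, 402 and 318 in HFD livers and 234, 606 and 397 in Con-FMT livers. It stood at 168, 173 and 174 in HFD+AOS livers and at 147, 208 and 264 in A10-FMT livers. Con-FMT 2 was the highest liver and Con-FMT 1 lay within the AOS-linked range, and the log2 difference was -0.97 ± 0.20 (adjusted p = 0.014). Sdf2l1, an ER chaperone partner, fell by 1.39 ± 0.31 and Ern1, the gene of the stress sensor IRE1, by 0.44 ± 0.07. Hyou1 fell by 1.01 ± 0.22, Manf by 0.91 ± 0.22 and Pdia4 by 0.75 ± 0.18. Canx, the gene of calnexin, fell by 0.33 ± 0.07. Herpud1, of ER-associated degradation, rose by 0.47 ± 0.09. Xbp1 had a log2 difference of -0.05 ± 0.13 (adjusted p = 0.819). Hspa5, Hsp90b1, Hyou1, Manf, Pdia4 and Xbp1 were named after their values were seen.

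The response element of the unfolded protein response (ERSE), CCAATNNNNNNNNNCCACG on either strand, was present before the start of 0.13% of all genes. Of the 15 genes of this list that fell and had a RefSeq promoter, 6 held it (Hspa5, Hsp90b1, Canx, Creld2, Dnajc3 and Syvn1). Calr, Derl3 and Pdia6, members that were not called, held it too. The list holds known genes of this response, so that such a share comes with the choice of the list. The promoters of Hspa5, at chr2:34771840-34772089 on the plus strand, and of Hsp90b1, at chr10:86705445-86705694 on the minus strand, are shown because their genes, described beside them, hold 1 and 2 copies, marked in capitals (GRCm38.p6, RefSeq).
Hspa5: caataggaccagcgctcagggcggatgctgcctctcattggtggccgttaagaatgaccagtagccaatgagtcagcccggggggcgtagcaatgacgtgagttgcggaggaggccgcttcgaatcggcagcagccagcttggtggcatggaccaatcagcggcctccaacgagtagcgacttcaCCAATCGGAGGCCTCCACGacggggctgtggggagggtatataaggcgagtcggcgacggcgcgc
Hsp90b1: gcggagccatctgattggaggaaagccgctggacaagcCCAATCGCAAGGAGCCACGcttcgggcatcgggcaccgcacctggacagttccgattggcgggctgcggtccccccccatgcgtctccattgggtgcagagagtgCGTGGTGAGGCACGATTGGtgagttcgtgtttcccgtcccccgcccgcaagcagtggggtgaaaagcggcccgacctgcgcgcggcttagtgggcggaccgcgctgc
Hsp90b1 encodes the ER paralogue of HSP90. Its RPKM was 331, 454 and 343 in HFD livers, 230, 479 and 316 in Con-FMT livers, 222, 233 and 229 in HFD+AOS livers and 191, 213 and 253 in A10-FMT livers. Con-FMT 1 lay among the AOS-linked livers, and the log2 difference of -0.64 ± 0.15 (adjusted p = 0.0248) was past the threshold except without HFD 2, HFD+AOS 1, A10-FMT 1 or A10-FMT 2.

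Cytosolic heat shock genes, which the factor HSF1 drives, were mostly lower, and the cold-inducible RNA-binding protein genes Cirbp and Rbm3 were higher. Of 22 genes tested, 10 fell, 2 rose and 10 did not pass, with a median log2 difference of -0.51. The share called was 54.5%, against 9.83% of all genes. The number called was 5 without Con-FMT 2, 6 without HFD 3, 7 without HFD 2, HFD+AOS 1, Con-FMT 3, A10-FMT 1 or A10-FMT 2, and 19 without HFD 1. Hspb1, the gene of a small heat shock protein, had an RPKM of 30.9, 62.2 and 61.8 in HFD livers and 47.8, 119 and 62.1 in Con-FMT livers. It stood at 12.3, 12.1 and 18.6 in HFD+AOS livers and at 24.0, 33.4 and 36.1 in A10-FMT livers, so that HFD 1 lay among the AOS-linked livers. The log2 difference was -1.46 ± 0.24 (adjusted p = 0.00446). Hsph1 fell by 1.07 ± 0.23 and Hsp90aa1 by 1.08 ± 0.23. Rbm3 rose from a median of 15.3 (10.5 to 17.0) to 21.8 (18.4 to 25.6) RPKM without overlap, by 0.54 ± 0.10, and Cirbp by 0.57 ± 0.12. The inducible Hspa1a and Hspa1b, near-identical genes whose reads the mapping could have shared, had log2 differences of -1.34 ± 0.55 and -1.41 ± 0.60 that did not pass (adjusted p = 0.133 and 0.145). The heat shock element, searched on both strands as alternating GAA and TTC units, was in the 250 bases before 0.514% of all genes. It was before 0 of the 7 genes of this list that fell and had a RefSeq promoter. Hspd1 and Hspe1, members that were not called, held it. Cirbp, Hsp90aa1, Hspa1a and Hspa1b were named after their values were seen.

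**Figure D4:**
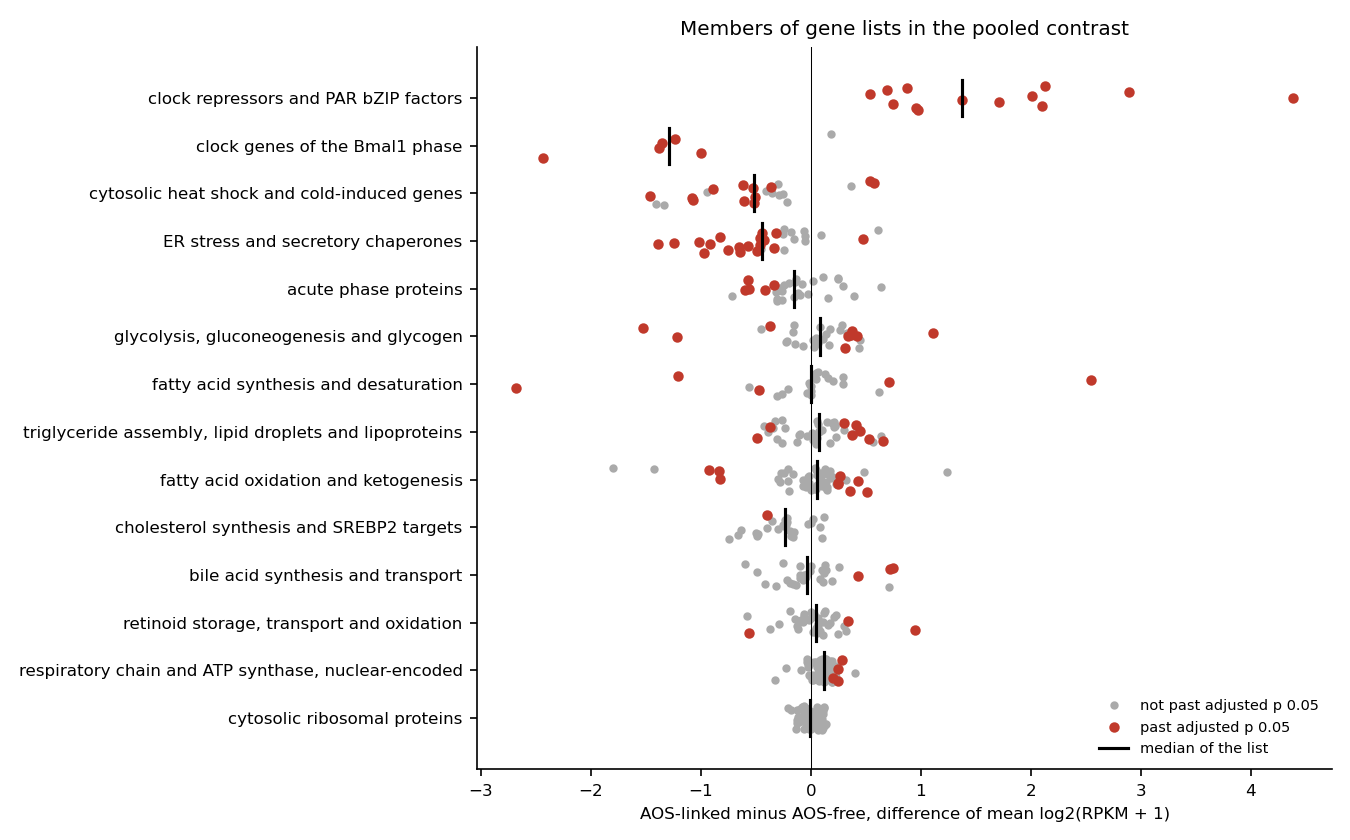
Log2 difference between AOS-linked and AOS-free livers (x axis) of each tested member of 14 gene lists, with members past an adjusted p of 0.05 in red and the median of each list as a bar. The 2 clock lists lie farthest from 0, at medians of 1.38 and -1.29. The metabolic lists hold single members at some distance around medians near 0, except cholesterol synthesis, whose median is -0.24.

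Carbohydrate genes changed in part, with 6 higher, 3 lower and 22 not past the test among 31. The share called was 29%, against 9.83% of all genes. Gys2, the hepatic glycogen synthase, had an RPKM of 32.5, 37.7 and 33.4 in HFD livers, 40.8, 47.8 and 45.4 in Con-FMT livers, 80.2, 79.9 and 81.8 in HFD+AOS livers and 108, 102 and 69.9 in A10-FMT livers. The AOS-linked livers were all above the AOS-free livers, by a log2 difference of 1.11 ± 0.10 (adjusted p = 8.93e-05), with 1.20 on the direct route and 1.02 on the transplant route. Ppp1r3c, which targets protein phosphatase to glycogen, went the other way, from a median of 60.0 RPKM (38.4 to 77.2) to 20.1 (14.6 to 28.5), and its log2 difference was -1.53 ± 0.17. Ugp2, which makes UDP-glucose, rose by 0.38 ± 0.07. G6pc, the catalytic subunit of glucose-6-phosphatase, named after its values were seen, fell by 1.21 ± 0.27 (adjusted p = 0.0198), a call that was lost without HFD+AOS 1, Con-FMT 2 or A10-FMT 1. The count of 9 genes was 5 without HFD+AOS 1 or Con-FMT 2.

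In fatty acid synthesis and desaturation, 2 of 25 genes rose and 3 fell (20%, against 9.83% of all genes), around a median of 0.01. Srebf1, the gene of the lipogenic factor SREBP1, had an RPKM of 42.6, 44.4 and 44.2 in HFD livers and 66.0, 60.7 and 53.4 in Con-FMT livers. It reached 87.3, 83.4 and 79.6 in HFD+AOS livers and 77.7, 90.4 and 87.6 in A10-FMT livers, without overlap, and the log2 difference was 0.71 ± 0.06 (adjusted p = 0.000101). Elovl3, an elongase of very long chain fatty acids, had the largest fall of all genes called. Its median was 179 RPKM in AOS-free livers (114 to 250) and 25.9 in AOS-linked livers (16.8 to 45.3), with a log2 difference of -2.68 ± 0.20 (adjusted p = 3.96e-05). Insig2, which holds SREBP factors in the ER, fell by 1.21 ± 0.26, with A10-FMT 3 (115) inside the AOS-free range of 104 to 154. The enzymes that SREBP1 drives did not pass, with log2 differences of -0.03 ± 0.30 for Fasn and 0.62 ± 0.76 for Scd1. Scd1 ranged from 19.2 to 215 RPKM in AOS-free livers and from 45.5 to 538 in AOS-linked livers. Insig2, Fasn and Scd1 were named after their values were seen.

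Triglyceride and lipoprotein genes were higher in 6 cases and lower in 2 of 43 (18.6%, against 9.83% of all genes). Dgat2, which makes triglyceride, rose from a median of 173 RPKM (125 to 189) to 234 (215 to 275), by a log2 difference of 0.53 ± 0.08 (adjusted p = 0.00285). Lpin2, a phosphatidate phosphatase gene, rose by 0.66 ± 0.09, and Apob, of very low density lipoprotein, fell by 0.37 ± 0.07, both without overlap. The count of 8 genes was 4 without HFD 3, HFD+AOS 1, Con-FMT 2 or A10-FMT 2, 5 without HFD 2, HFD+AOS 3 or Con-FMT 3 and 14 without A10-FMT 3. In fatty acid oxidation, 6 of 55 genes rose and 3 fell (16.4%). The median log2 difference of the 55 was 0.20 on the direct route and -0.08 on the transplant route. Their count of 9 called genes was 6 without HFD 3, Con-FMT 3, A10-FMT 1 or A10-FMT 2 and 12 without A10-FMT 3. Ppara, the receptor that drives this pathway, rose by 0.51 ± 0.08 (adjusted p = 0.00313), with 0.87 on the direct route and 0.15 on the transplant route. Crot, of peroxisomal oxidation, fell by 0.82 ± 0.13, and Bdh1, of ketone body metabolism, rose by 0.26 ± 0.06. The values of Bdh1 overlapped, and its log2 difference was 0.48 on the direct route and 0.05 on the transplant route. Fgf21, a hepatic hormone of fasting, fell by 0.92 ± 0.20 and was named after its values were seen. In cholesterol synthesis, the median log2 difference was -0.24, with -0.04 on the direct route and -0.45 on the transplant route. Of its 27 genes, 4 had a positive sign and 1 fell past the test (3.7%). That gene was Srebf2, whose log2 difference of -0.39 ± 0.11 (adjusted p = 0.0457) lost its call in 10 of 12 fits that leave out 1 library, all but those without HFD+AOS 3 or A10-FMT 3. Without A10-FMT 3, limma called 6 genes of that list.

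Nr1h4, which encodes the bile acid receptor FXR and lies at chr10:89454234-89533585, was higher in AOS-linked livers. Its RPKM was 63.4, 73.4 and 58.6 in HFD livers, 56.6, 64.3 and 60.7 in Con-FMT livers, 85.0, 81.2 and 87.3 in HFD+AOS livers and 88.7, 96.2 and 72.4 in A10-FMT livers. HFD 2 lay just above A10-FMT 3, and the other 5 livers of each side did not overlap. The log2 difference was 0.43 ± 0.08 (adjusted p = 0.00799, exact permutation p = 0.00433), with 0.38 on the direct route and 0.49 on the transplant route, neither of which passed alone (adjusted p = 0.08 and 0.0891). Rbp4, the plasma retinol carrier, had a median of 3122 RPKM in AOS-free livers (2615 to 3669) and of 3638 in AOS-linked livers (3377 to 4134). Its log2 difference of 0.25 ± 0.07 did not pass (adjusted p = 0.0529). Dhrs9, a retinol dehydrogenase gene, lay between 0 and 0.13 RPKM in the 12 livers and was not tested.

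Of 30 bile acid genes, 3 rose and 0 fell (10%), and of 36 retinoid genes, 2 rose and 1 fell (8.33%), shares near the 9.83% of all genes and so no result about these lists. The first count was 6 without A10-FMT 3 and the second 5 without HFD 1. Abcg5, a sterol transporter of bile, had a median RPKM of 25.5 (21.6 to 40.2) in AOS-free and 44.3 (40.9 to 57.0) in AOS-linked livers, with a log2 difference of 0.72 ± 0.09 (adjusted p = 0.00133). Its partner Abcg8 rose by 0.75 ± 0.12. These are overlapping neighbours on opposite strands (chr17:84658234-84683011 and chr17:84676302-84700333), and their reads may not have been told apart. Cyp7a1, the rate-limiting enzyme of bile acid synthesis, named after its values were seen, ranged from 8.63 to 66.7 RPKM in AOS-free livers and from 20.4 to 87.6 in AOS-linked livers, with a log2 difference of 0.71 ± 0.45 that did not pass (adjusted p = 0.315). Rdh9, a retinol dehydrogenase gene with close paralogues, rose from a median of 8.89 RPKM (7.31 to 16.1) to 19.4 (15.7 to 31.1), by a log2 difference of 0.95 ± 0.17. Stra6l, a retinol transporter gene, fell by 0.56 ± 0.11 without overlap. Adh7 rose by 0.34 ± 0.08, a call lost without HFD 2, HFD+AOS 1, HFD+AOS 3, Con-FMT 3, A10-FMT 1 or A10-FMT 2.

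**Figure D5:**
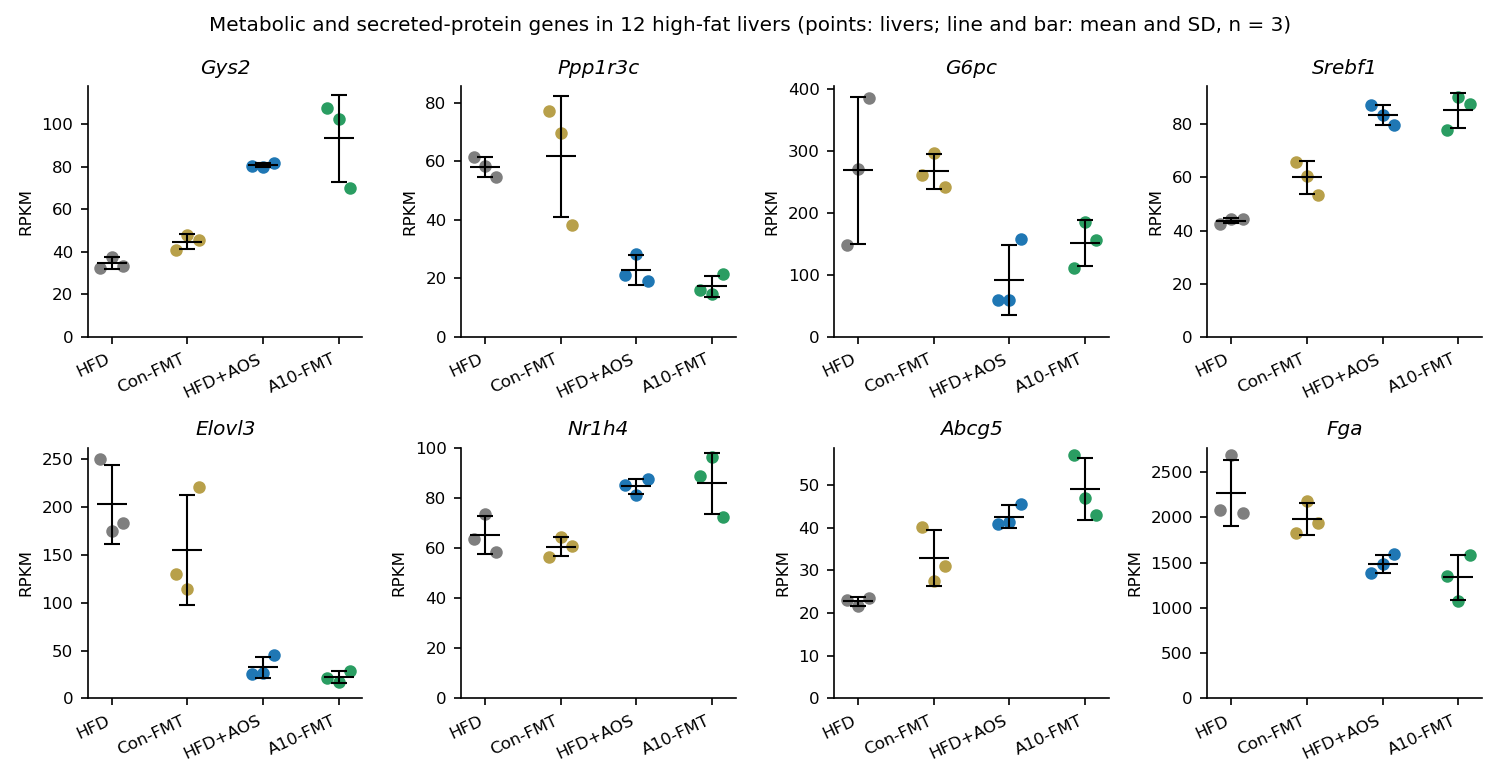
RPKM (y axes, linear) of 8 metabolic and secreted-protein genes by group (x axes), with a point for each liver and the mean and SD of 3 livers. Gys2, Srebf1 and Abcg5 are higher and Ppp1r3c, Elovl3 and Fga lower in every AOS-linked liver, whereas G6pc and Nr1h4 overlap.

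Among genes of foreign compound metabolism, Cyp2e1 rose from a median of 3499 RPKM (3044 to 4325) to 5084 (4343 to 5937), by a log2 difference of 0.52 ± 0.09 (adjusted p = 0.00495). Of 39 Cyp genes, 2 rose and 0 fell (5.13%), and of 42 conjugating enzymes, 3 rose and 0 fell (7.14%), both under the 9.83% of all genes, with counts of 8 and 7 without HFD 1. The smallest counts were 1 Cyp gene without HFD+AOS 1 or HFD+AOS 3 and 1 conjugating enzyme without HFD+AOS 1 or Con-FMT 2. Sult1b1, a sulfotransferase gene, rose by 0.47 ± 0.10 without overlap. Of 30 antioxidant genes 2 were called (6.67%). Prdx6, a peroxiredoxin gene, rose by 0.31 ± 0.06 and Osgin1, an oxidative stress response gene, fell by 0.78 ± 0.17, and 5 genes of this list were called without HFD 1.

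Acute phase proteins, which the liver secretes, fell in 5 of 29 cases and rose in 0 (17.2%, against 9.83% of all genes). Fga, the fibrinogen alpha chain, went from a median of 2063 RPKM (1833 to 2692) to 1434 (1081 to 1591), by a log2 difference of -0.59 ± 0.11 (adjusted p = 0.00662). Fgg, the gamma chain, fell by 0.56 ± 0.10, also without overlap, and Itih3 by 0.33 ± 0.07, a call that was lost without Con-FMT 2. The 5 genes called were 2 without Con-FMT 2 and 3 without HFD+AOS 2 or A10-FMT 2. Of 15 p53 and Gadd45 genes, 1 rose and 2 fell (20%), a count that was 5 without HFD 1. Gadd45a, of the response to DNA damage, rose from a median of 2.13 (1.53 to 2.92) to 6.53 (3.6 to 8.24) RPKM, by 1.15 ± 0.11, while Ddit4, an inhibitor of mTOR signalling, fell by 0.67 ± 0.14. Of 23 genes of insulin and growth hormone signalling, 3 rose and 2 fell (21.7%), a count that was 3 without HFD 3 and 10 without HFD 1. Stat5b, of growth hormone signalling, fell by 0.48 ± 0.07, and Foxo3, a factor that insulin restrains, rose by 0.34 ± 0.05. In amino acid catabolism, 5 of 59 genes rose and 3 fell (13.6%, against 9.83% of all genes). Gldc and Amt, of glycine cleavage, fell by 0.84 ± 0.16 and 0.56 ± 0.11. The count of 8 genes was 3 without HFD 3, HFD+AOS 1 or Con-FMT 2, 4 without HFD 2, 5 without HFD+AOS 3 or A10-FMT 1 and 15 without HFD 1.

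Of 80 nuclear genes of the respiratory chain, 68 had a positive sign with a median of 0.12, and 4 rose (5%, against 9.83% of all genes), a count that was 0 without HFD 3, HFD+AOS 1, Con-FMT 2, A10-FMT 1 or A10-FMT 2, 1 without HFD+AOS 3 or Con-FMT 3, 2 without Con-FMT 1 and 12 without A10-FMT 3. Of 82 cytosolic ribosomal protein genes, limma called 0, with 1 at an unadjusted p under 0.05 and a median of 0.00. Of 41 interferon-stimulated genes it called 0, with 6 at an unadjusted p under 0.05, and of 8 genes of MHC class II presentation 0, with 1. The count of interferon-stimulated genes was 1 without HFD 3 or Con-FMT 3 and 3 without HFD+AOS 2 or A10-FMT 3. Of 78 mitochondrial ribosomal protein genes, 4 rose and 0 fell, which is 5.13% and under the 9.83% of all genes. That count was 1 without A10-FMT 1, 2 without HFD 3 or Con-FMT 2, 7 without HFD 1 and 8 without A10-FMT 3. Of 39 genes of complement and coagulation, 1 rose and 1 fell, which is also 5.13%. F11, of the clotting cascade, rose by 0.31 ± 0.08, a call that was lost in 8 of the 12 fits without 1 library. Of 37 proteasome genes 3 fell (8.11%) and of 12 cell cycle genes 1 fell (Mcm7, 8.33%), in calls that were each lost in 7 or more of those fits. Of 21 matrix genes, 19 had a positive sign, with a median of 0.17 and 9 at an unadjusted p under 0.05. The 1 called (4.76%) was Mmp14, which had the opposite sign and lost its call in 8 of those fits, and without A10-FMT 3 limma called 5. Of 17 immediate early genes limma called 0, with 1 at an unadjusted p under 0.05 and 1 called without HFD 1. Of 20 male-biased liver genes 1 rose (Susd4) and 1 fell (Elovl3), which is 10%, and the count was 1 without HFD 2, HFD 3, HFD+AOS 1, HFD+AOS 2, Con-FMT 2 or A10-FMT 2. Of 12 female-biased genes 1 rose (Fmo2, 8.33%), a count that was 2 without HFD+AOS 2 or A10-FMT 3 and 0 without any of the others but HFD 1.

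The tissue was liver by its markers, since all 9 hepatocyte genes were tested and their summed RPKM lay between 60552 and 75915 in the AOS-linked and between 61185 and 73224 in the AOS-free livers. Of these 9 markers, 1 rose and 0 fell (11.1%, against 9.83% of all genes). Markers of Kupffer cells summed to between 120 and 176 RPKM in AOS-linked and between 110 and 232 in AOS-free livers, and 0 of 14 were called, with 1 at an unadjusted p under 0.05. Markers of stellate cells and fibroblasts summed to between 91.8 and 131 RPKM in AOS-linked and between 80.8 and 114 in AOS-free livers. Of these 11 markers, 0 were called and 5 were at an unadjusted p under 0.05. A positive sign was held by 10 of the 11, with a median log2 difference of 0.20, and limma called 2 without A10-FMT 3. Of 4 cholangiocyte markers tested, 2 had a positive sign and 2 were at an unadjusted p under 0.05, with a median log2 difference of 0.04. Sox9 fell by 0.67 ± 0.12 and the other 3 did not pass, so that these markers had no common direction. Limma called 0 of the markers tested for neutrophils and monocytes (3 of 11 tested), B cells (2 of 7), endothelium (10 of 12) and erythroid cells (7 of 9). Each of these lists held 1 at an unadjusted p under 0.05. For T cells (2 of 11 tested), adipocytes (2 of 8), pancreas (1 of 15) and intestine (3 of 12), 0 were called and 0 were at an unadjusted p under 0.05. Where most markers were too low to be tested, the list cannot show whether such cells differed. In such bulk samples, fewer cells of a type and less RNA per cell cannot be told apart.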

How the data were processed

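Liver RNA was sequenced on an Illumina HiSeq instrument. The authors deposited 1 table of RPKM for 18 libraries. The column header names no unit, and RPKM is taken from the methods of the study, which describe SOAPaligner on reference genes with every hit reported, while the submitters' processing notes name Bowtie 0.12.2 and mm10. Which of them made the values is not given in the sources used here. Multiply mapped reads can be shared by similar genes. Low values were tested for steps of single reads. Ratios of the lowest values to those of HFD 1 were commonest at 1 in 10 of 11 libraries, over 12 to 25 genes each, too few to recover reads.

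Of 19057 lines, the 10507 that reached 1 RPKM in 3 or more of the 18 libraries were tested. log2(RPKM + 1) of the 12 high-fat libraries was fitted with 1 mean per group in limma 3.58.1 (R 4.3.3), with a trend in the variance, two-sided, and Benjamini-Hochberg adjustment over all genes tested. DEGseq, the test of the study, needs read counts and was not run. Scripts were tested on simulated data. Exact permutation tests used all splits of 6 against 6 livers, and for Dbp also the splits within each route. Figures and motif searches used Python 3.11.15. Promoters came from RefSeq (GRCm38.p6) and gene positions from GENCODE (release M21, GRCm38).

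The members and gene lists were chosen with earlier results of these data known. Named were Nr1h4, Dhrs9 and Rbp4, up to 10 called genes a direction with the largest differences, up to 3 members of each of 42 lists with the smallest p, up to 4 genes for the difference between routes and up to 6 genes a direction without overlap. Other genes are said to be named after their values were seen. Alternatives were another pseudocount, no filter, equal medians, all 18 libraries, no route term, a replicate block, another variance model and each library left out. Some genes that this rule names are not reported here.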

Additional observations from a re-analysis of the deposited data

Results flagged for a closer look

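Ablim3 was singled out because the effect of AOS differed between the routes by a test of the difference itself. Its log2 difference was -0.91 on the direct route and 0.31 on the transplant route, and the difference between these was -1.22 (limma, Benjamini-Hochberg adjusted p = 0.0116). It was the 1 gene of 10507 to pass. The HFD livers held 6.66, 7.18 and 7.66 RPKM, and the 9 other high-fat livers held less. With the replicate number as a block the adjusted p was 0.0757.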

How the results depend on the processing

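The number of genes called between AOS-linked and AOS-free livers was 1613 in a fit to all 18 libraries and between 512 and 1511 without 1 library. The direct route called 919 genes with all 18 libraries, 289 with no filter on low values and between 141 and 660 without 1 library. The transplant route called 177, 39 and between 10 and 284 in these fits, and 44 with the replicate number as a block. The difference between routes gave 2 genes with no filter, 0 with the replicate block and between 0 and 2 without 1 library. With the clock index as a covariate, a choice made after seeing the data, limma called 0 genes in each of the 4 comparisons, and 371, 401, 347 and 620 at an unadjusted p under 0.05. That index is nearly collinear with the groups. For the pooled contrast, no route term gave 1119 genes, equal medians 1363 (751 higher), a pseudocount of 0.1 gave 1041, no filter 715, the replicate block 1035 and the other variance model 1017. Deviations of same-numbered livers from their group means correlated between -0.18 and 0.23, and in 0 pairs of groups were all correlations over 0.1. Between HFD+AOS and A10-FMT the correlations were 0.15, 0.05 and 0.14. Such correlations cannot show whether livers were handled in numbered sets. Of 108 named genes that were called, 73 passed in each of 19 other settings, and no called gene changed sign in any of them. The 3 livers of a group and an unknown depth limit the precision, each transplant group rests on 1 donor pool, and the time of sampling cannot be told apart from the groups.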

Other observations

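Further genes were named after their values were seen (limma, Benjamini-Hochberg), of which Pnpla2, Cd36, Pdk4, Cpt1a and Slc2a2 are among those counted above in the lists of triglyceride, fatty acid oxidation and carbohydrate genes. Nampt, the rate-limiting enzyme of NAD salvage, had a median of 9.16 (7.18 to 9.75) RPKM in AOS-free and 16.6 (11.8 to 26.5) in AOS-linked livers, without overlap, and rose by 0.86 ± 0.13 on the log2 scale. Por, which passes electrons to cytochrome P450 enzymes, went from a median of 40.4 (21.5 to 51.0) to 80.9 (62.5 to 152) RPKM, also without overlap, and rose by 1.14 ± 0.24. Pnpla2, the gene of adipose triglyceride lipase, rose by 0.38 ± 0.08. Pdk4, which inhibits pyruvate dehydrogenase, fell by 0.84 ± 0.18, with overlap. Slc2a2, the hepatic glucose transporter, rose by 0.37 ± 0.08, a call that was lost without HFD 3 or Con-FMT 2. Cpt1a and Cd36, of fatty acid entry into mitochondria and cells, had log2 differences of 0.36 ± 0.10 and 0.45 ± 0.12, calls that were each lost in 9 of the 12 fits without 1 library.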
